A study of Mus musculus with 10 samples.

Results

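Globin-rich cells of the developing mouse lower jaw and incisor were taken as the cells in which 7 hemoglobin chain genes (*Hba-x*, *Hba-a1*, *Hba-a2*, *Hbb-y*, *Hbb-bh1*, *Hbb-bt* and *Hbb-bs*) supplied at least 20% of all UMIs, the molecular tags that count RNA molecules. The rule was applied to cells with at least 700 detected genes and at most 20% of UMIs from mitochondrial genes, called kept cells here. It found 268 globin-rich cells among 17175 kept cells. The 3 stages, named by embryonic day, were E11.5, E14.5 and E16.5, and where 3 values are given without a stage they follow this order. Globin-rich cells numbered 103 of 6573, 113 of 6091 and 52 of 4511, which is 1.57% (95% exact binomial interval, 1.28 to 1.9), 1.86% (1.53 to 2.23) and 1.15% (0.862 to 1.51). These cells were chosen by their measured globin UMIs, so globin values are given below as a description only. All levels of other genes are CPM, counts scaled to a fixed total of the UMIs left after the 7 globins were taken out.

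Red cells of the mouse embryo come in waves. The primitive wave forms in the yolk sac, enters the blood while still nucleated and uses embryonic globins. The definitive wave matures in the fetal liver, uses adult globins and sheds its nucleus before release. Both build hemoglobin from globin chains and heme, which needs iron imported through the transferrin receptor and a chain of mitochondrial and cytosolic enzymes, and both assemble a spectrin-based membrane skeleton. As they mature they destroy organelles and most RNA other than that of globin.

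The cells came from wild type NMRI embryos, whole mandibles being used at E11.5 and only the lower incisor buds at both later stages, and were profiled by droplet single-cell RNA sequencing. The labels list 4, 4 and 2 samples, but the cells of each stage stand in 1 pooled matrix with 8708, 8192 and 5719 barcodes and 49264075, 31670249 and 42895059 UMIs, and no barcode could be assigned to a sample. Each stage was therefore 1 sample and no difference was tested. Stage, library, dissected tissue and embryo cannot be told apart, and the intervals given cover counting error only. The Y-linked gene *Ddx3y* had 0, 588 and 720 UMIs, so the sex of the embryos cannot be told apart from stage either. The stages shared between 13 and 17 barcodes in each pair, and no shared barcode was a globin-rich cell in both.

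The gene minimum decided how many globin-rich barcodes were kept. Of all barcodes, 210 (2.41%, 2.1 to 2.76), 1113 (13.6%, 12.9 to 14.3) and 563 (9.84%, 9.08 to 10.6) were globin-rich. Those under 700 genes made up 107 (51%, 44 to 57.9), 1000 (89.8%, 87.9 to 91.6) and 511 (90.8%, 88.1 to 93) of them, and the mitochondrial limit alone removed 0. The globin-rich cells of the later stages were thus the few barcodes with the most genes among many more. Their median gene number was 1049 (703 to 3932), 1195 (704 to 3132) and 2186 (714 to 4806). The barcodes under the minimum had medians of 518, 184 and 207 genes. Their globin share had medians of 36.7%, 88.5% and 92.3%, against 43.3%, 41.6% and 42.4% in the globin-rich cells. Values for them are given beside those of the globin-rich cells for several gene lists.

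**Figure D1:**
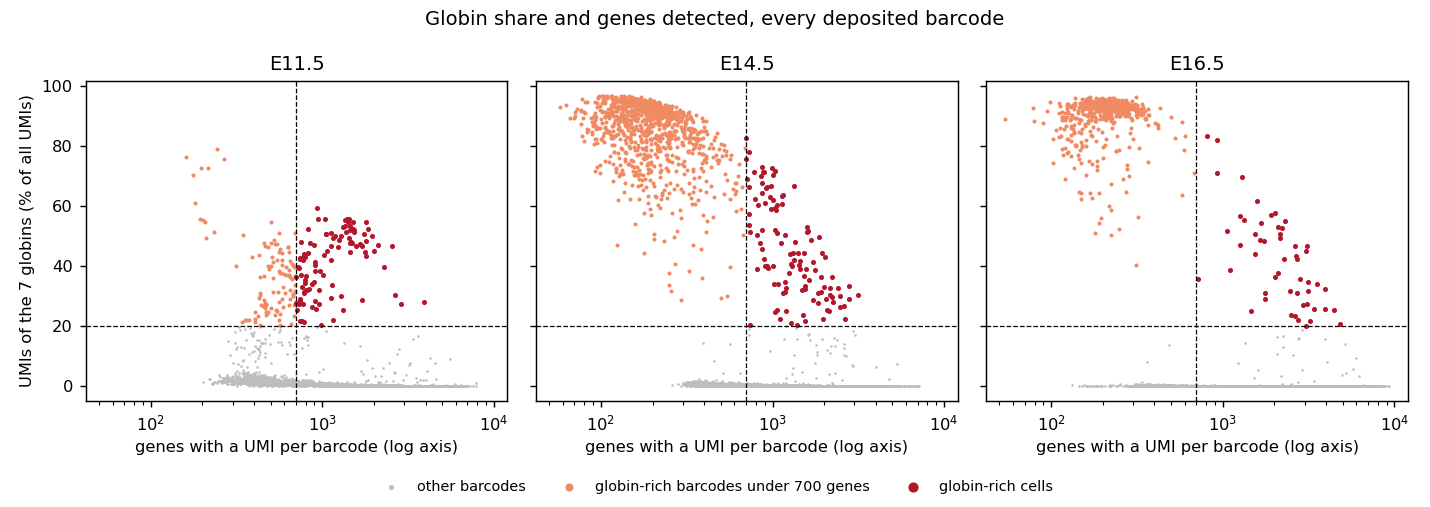
Globin share of all UMIs (%) against the number of genes detected (log axis) for each barcode of the 3 stages, with lines at the 20% globin share and the 700-gene minimum that define the globin-rich cells (upper right). At both later stages most globin-rich barcodes sit to the left of the 700-gene line, with median globin shares of 88.5% and 92.3%.

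The label of erythroid cells was checked against 10 erythroid markers, 9 of them in the files. At E11.5 all 9 had UMIs, and after each cell was thinned to 1000 non-globin UMIs every one of the 103 cells held at least 1 marker UMI (100%, 96.5 to 100), against 2.18% of the other kept cells. Later the thinned share was 49.6% (40 to 59.1) and 51.9% (37.6 to 66), against 0.368% and 0.135% of the other kept cells, and before thinning it was 78.8% and 90.4%. Thinning left out 7 of the other kept cells at E11.5 and no globin-rich cell. Median non-globin UMIs were 2614, 2742 and 5840 in the globin-rich cells and 5658, 3433 and 6215 in the other kept cells. *Klf1*, a transcription factor required for adult globin expression, had 80, 0 and 0 UMIs in the globin-rich cells, and *Gata1*, the master factor of the lineage, had a level of 64.2, 2.55 and 0 CPM.

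Markers of mesenchyme and epithelium were higher at the later stages. The 10 mesenchyme markers summed to 337 CPM (281 to 401), 2800 (2637 to 2971) and 2477 (2318 to 2645) in the globin-rich cells. In the other kept cells the sums were 2147, 2757 and 2390 CPM, so the globin-rich cells stood well below their neighbors at E11.5 and level with them later. The most abundant mesenchyme marker was *Prrx1* at E11.5 (102 CPM) and then the collagen gene *Col3a1* (776 and 766 CPM), and *Postn* was at 0 at E11.5. The thinned share of globin-rich cells with a mesenchyme UMI was 23.3% (15.5 to 32.7), 75.2% (66.2 to 82.9) and 61.5% (47 to 74.7), against 81.9%, 78.3% and 64.8% of the other kept cells. Epithelium markers summed to 10.7, 402 and 1192 CPM. *Epcam* was their most abundant gene at both later stages (122 and 340 CPM), and 9 of the 10, *Epcam* among them, were at 0 at E11.5. Endothelium markers summed to 42.8, 389 and 133 CPM, with *Egfl7*, *Cdh5* and *Ramp2* the most abundant at the successive stages, and with *Cldn5* and *Ramp2* at 0 at E11.5. In the other kept cells epithelium markers summed to 15.3, 578 and 1399 CPM and endothelium markers to 95.1, 190 and 197 CPM. Markers of other blood lineages were at low levels. Macrophage markers summed to 2.67, 30.5 and 5.53 CPM with *C1qa*, *C1qb* and *C1qc* at 0 throughout, megakaryocyte markers to 10.7, 7.64 and 0 CPM, and *Ptprc*, the pan-leukocyte CD45 gene, was at 0. Mast cell markers summed to 2.67, 12.7 and 44.2 CPM, all of it *Kit*. Glia markers summed to 2.67, 28 and 19.4 CPM and muscle markers to 2.67, 2.55 and 2.76 CPM. The data thus bore out the label at E11.5. At the later stages the cells carried erythroid RNA together with RNA of mesenchyme, epithelium and endothelium, so they are called globin-rich cells here. Of the globin-rich cells, 2, 4 and 5 had a Scrublet score in the top 5% of their stage, and the other kept cells had a median globin share of 0.151%, 0.0937% and 0.0239%. The part of doublets, free RNA and other-type RNA in the differences between stages was not tested.

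Across all 4580 genes with a mean level of at least 25 CPM, the globin-rich cells differed from the other kept cells of their stage mainly at E11.5. A gene was counted as differing when the ratio of levels, with 10 CPM added to both, was past 2-fold. At E11.5, 350 genes (7.64%) were higher and 1148 (25.1%) lower in the globin-rich cells, with a median log2 ratio of -0.44. At E14.5 these counts were 94 (2.05%) and 15 (0.328%) with a median of -0.05, and at E16.5 they were 55 (1.2%) and 10 (0.218%) with a median of -0.00. Erythroid genes stood among the higher ones at each stage. Of 8 erythroid markers tested, 8, 6 and 5 were higher, and of 12 heme synthesis genes 12, 3 and 3 were higher, the 3 being *Alas2*, *Fech* and *Slc25a39* at both later stages. *Alas2* was at 1118, 524 and 473 CPM in the globin-rich cells against 4.02, 1.37 and 1.02 CPM in the other kept cells. Of 10 mesenchyme markers, 0 were higher and 9 lower at E11.5, and none was past 2-fold at E14.5 or E16.5.

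The erythroid level followed the globin share within the later stages. At E14.5 the erythroid markers summed to 431 CPM in the 21 cells with 20 to 30% globin, 540 CPM in the 31 cells with 30 to 40%, 1242 CPM in the 33 cells with 40 to 60% and 2733 CPM in the 28 cells above 60%. At E16.5 the same bands, of 13, 12, 22 and 5 cells, gave 420, 620, 1140 and 3428 CPM. At E11.5 the first 3 bands, of 21, 22 and 60 cells, were near each other at 5773, 5611 and 5929 CPM. The mesenchyme markers showed no such order at E14.5, with 3087, 2057, 3655 and 2609 CPM in the 4 bands, or at E16.5, with 1191, 4208, 2776 and 1839 CPM. At E11.5 they were lower in each higher band, at 1008, 512 and 142 CPM. On either side of the 20% threshold, cells with 15 to 20% and with 20 to 25% globin had erythroid sums of 2690 and 8942 CPM at E11.5 (9 and 5 cells), 220 and 358 CPM at E14.5 (14 and 10 cells), and 1654 and 314 CPM at E16.5 (6 cells each).

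The globins themselves changed from embryonic to adult. *Hbb-y*, the embryonic beta-type chain, made up 45.9%, 14.1% and 0% of the globin UMIs of the globin-rich cells, and *Hbb-bs*, an adult beta chain, 0.295%, 31.5% and 46.1%. The embryonic share of beta-type UMIs (*Hbb-y* and *Hbb-bh1*) put all 103 cells at E11.5 in an embryonic type and all 52 at E16.5 in an adult type, while E14.5 held 34 embryonic-type (30.1%, 21.8 to 39.4) and 79 adult-type cells with 1 cell between 30 and 70%. The adult chains *Hbb-bt* and *Hbb-bs*, and *Hba-a1* and *Hba-a2*, are near-identical copies, so the split of reads within each pair is uncertain.

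**Figure D2:**
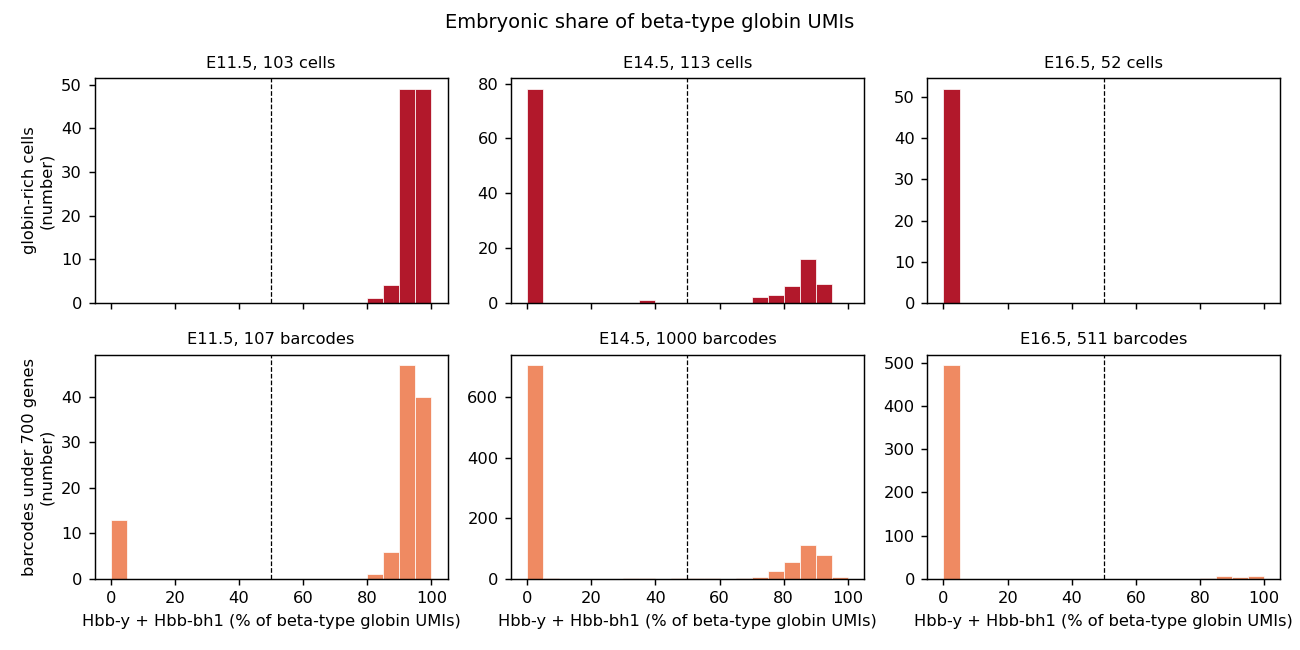
Number of globin-rich cells (top) and of globin-rich barcodes under 700 genes (bottom) by the embryonic share of their beta-type globin UMIs (%), at 3 stages. At E14.5 both groups fall into an adult-type set near 0% and an embryonic-type set with medians of 86.8% and 87.4%, with 1 globin-rich cell between 30 and 70%.

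The promoters of 4 genes on which the comparison of stages turns are shown, since erythroid promoters are known for GATA words, bound by *Gata1*, and for the CACCC box, bound by *Klf1*. Each stretch runs from 250 bases before to 50 bases after the RefSeq start of the gene (GRCm38.p6), 5′ to 3′ on the strand of the gene, with every AGATAA and TGATAA in capitals. The word CCACCC is in capitals too, and all 3 were searched on both strands, so that a word on the other strand is printed as its reverse complement. *Alas2*, at chrX:150547167-150547466 (plus strand), encodes the erythroid first enzyme of heme synthesis and kept a sizable level at all stages. *Hemgn*, at chr4:46404134-46404433 (minus strand), encodes the erythroid nuclear protein hemogen. *Klf1* is at chr8:84901732-84902031 (plus strand). *Kel*, at chr6:41704276-41704575 (minus strand), encodes the Kell blood group glycoprotein, and these last 3 were far lower after E11.5.
Alas2: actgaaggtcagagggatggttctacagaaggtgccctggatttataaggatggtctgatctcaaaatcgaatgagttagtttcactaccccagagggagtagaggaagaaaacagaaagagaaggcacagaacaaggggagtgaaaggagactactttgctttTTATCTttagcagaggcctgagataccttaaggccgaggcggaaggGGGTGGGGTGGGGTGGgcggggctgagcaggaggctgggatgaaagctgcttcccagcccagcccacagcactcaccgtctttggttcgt
Hemgn: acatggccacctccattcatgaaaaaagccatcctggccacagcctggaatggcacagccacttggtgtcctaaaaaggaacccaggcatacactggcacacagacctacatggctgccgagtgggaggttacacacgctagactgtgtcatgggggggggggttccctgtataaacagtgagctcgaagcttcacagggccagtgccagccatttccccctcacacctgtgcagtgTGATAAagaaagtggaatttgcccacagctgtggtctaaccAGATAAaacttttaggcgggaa
Klf1: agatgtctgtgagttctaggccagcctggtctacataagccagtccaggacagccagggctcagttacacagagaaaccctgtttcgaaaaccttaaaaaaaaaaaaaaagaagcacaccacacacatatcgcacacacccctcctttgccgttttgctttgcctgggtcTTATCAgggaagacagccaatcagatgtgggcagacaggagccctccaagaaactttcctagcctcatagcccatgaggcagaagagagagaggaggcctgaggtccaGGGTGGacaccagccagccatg
Kel: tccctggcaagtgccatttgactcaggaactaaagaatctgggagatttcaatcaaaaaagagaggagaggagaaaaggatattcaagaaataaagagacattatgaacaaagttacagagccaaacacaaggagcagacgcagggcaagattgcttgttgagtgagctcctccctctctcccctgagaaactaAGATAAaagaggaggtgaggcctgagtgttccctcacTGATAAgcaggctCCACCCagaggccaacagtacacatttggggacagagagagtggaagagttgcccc

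Each of these promoters held a GATA word. It lay 86 bases before the start in *Alas2* (AGATAA, minus strand of the gene), 80 before in *Klf1* (TGATAA, minus strand), 56 and 19 before in *Kel*, and 13 before and 28 after in *Hemgn*. CCACCC words lay 40, 35 and 30 bases before the start in *Alas2*, 6 before in *Kel* and 28 after in *Klf1*. Among the 32851 promoters of the table, AGATAA or TGATAA was present in 18.6% (AGATAA in 11.2%, TGATAA in 9.05%) and CCACCC in 31.5%. Of the 10 erythroid markers 6 had a promoter in the table, and 5 of these 6 (83.3%) held a GATA word. For heme synthesis 11 of 13 genes were matched, with 3 of 13 promoters (23.1%) holding one, and for the membrane list 13 of 20 genes, with 6 of 16 promoters (37.5%). A match is a description of letters and not of a bound site.

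Stage by stage, the globin-rich cells at E14.5 were compared with those at E11.5, the embryonic-globin stage. Of 4580 genes 1054 (23%) were at least 2-fold higher and 384 (8.38%) at least 2-fold lower at E14.5. At E16.5 against E11.5, 1173 (25.6%) were higher and 330 (7.21%) lower. The median log2 ratio of all genes was 0.25 and 0.33. With the ratios shifted to a median of 0, 801 were higher and 567 lower at E14.5, and 846 and 573 at E16.5, so part of the excess of higher genes followed the scaling. The erythroid markers were lower in 8 of 8 cases at both later stages, with medians of -3.21 and -3.59 on the log2 scale, and summed to 5859 CPM (5616 to 6109), 1000 (904 to 1104) and 802 (712 to 900). In the barcodes under the minimum they summed to 6287, 7429 and 13695 CPM, but only 2 of 8 were higher, *Alas2* among them, and 5 lower at E14.5 and 4 lower at E16.5 (medians -1.22 and -0.97). Of all genes tested in these barcodes, 12.7% were higher and 24.2% lower at E14.5 than at E11.5, and 13.6% higher and 31.2% lower at E16.5. The erythroid sums under the minimum pooled both beta-globin types. Within the embryonic type they were 6408, 2436 and 2375 CPM (22 UMIs at E16.5). Within the adult type they were 3524 (14 UMIs), 11836 and 14296 CPM.

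Heme synthesis genes were lower after E11.5. In the globin-rich cells their summed level was 6725 CPM (6465 to 6993), 1347 (1234 to 1466) and 1241 (1129 to 1362), with 336, 319 and 374 CPM in the other kept cells. Of 12 genes tested, 11 were lower and 0 higher at both later stages, with medians of -3.11 and -3.17 on the log2 scale, and *Slc25a39*, a mitochondrial glutathione carrier, stayed within 2-fold. Beside these, 8.38% and 7.21% of all genes tested were lower and 23% and 25.6% higher. The heme genes differed unequally. *Alas2* was at 1118 CPM (1013 to 1230), 524 (455 to 601) and 473 (405 to 549), a log2 ratio of -1.08 (-1.32 to -0.84) at E14.5. *Fech*, ferrochelatase, which inserts iron in the last step, was at 663, 260 and 276 CPM. The enzymes between them differed far more. *Cpox*, coproporphyrinogen oxidase, was at 725, 15.3 and 27.6 CPM with a log2 ratio of -4.86 (-5.58 to -4.07) at E14.5, and so near its 16 and 21.3 CPM in the other kept cells of the later stages. *Alad*, which forms the first pyrrole, was at 398, 30.5 and 19.4 CPM. The mitochondrial membrane proteins *Tmem14c*, a porphyrin transporter (1318, 112 and 111 CPM), and *Abcb10* (439, 22.9 and 5.53 CPM) were lower too.

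The barcodes under the gene minimum gave another picture of the same genes. There *Alas2* was at 1069, 3938 and 8350 CPM and *Fech* at 667, 1748 and 3985 CPM, highest at E16.5, while *Alad* was at 328, 51.4 and 70.8 CPM, lower at both later stages. The first and last enzymes thus stood apart from *Alad* in both sets, but the sum of the list did not follow 1 direction: it was 7282, 7924 and 15557 CPM in these barcodes. Computed on them alone, the log2 ratio of the summed heme list was 0.12 at E14.5 and 1.09 at E16.5 against E11.5, against -2.31 and -2.43 in the globin-rich cells. Only the sum turned: 8 of 12 genes were lower in these barcodes at each later stage, with medians of -1.81 and -1.91, and the 3 higher ones were *Alas2*, *Fech* and *Slc25a39*. Among all genes in these barcodes, 24.2% and 31.2% were lower and 12.7% and 13.6% higher. The heme sum pooled both beta-globin types, with embryonic-type shares of 87.9%, 28.9% and 3.33%. Within the embryonic type it was 7447, 2563 and 2591 CPM (24 UMIs at E16.5), lower at both later stages. Within the adult type it was 3524 (14 UMIs), 12656 and 16245 CPM.

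**Figure D3:**
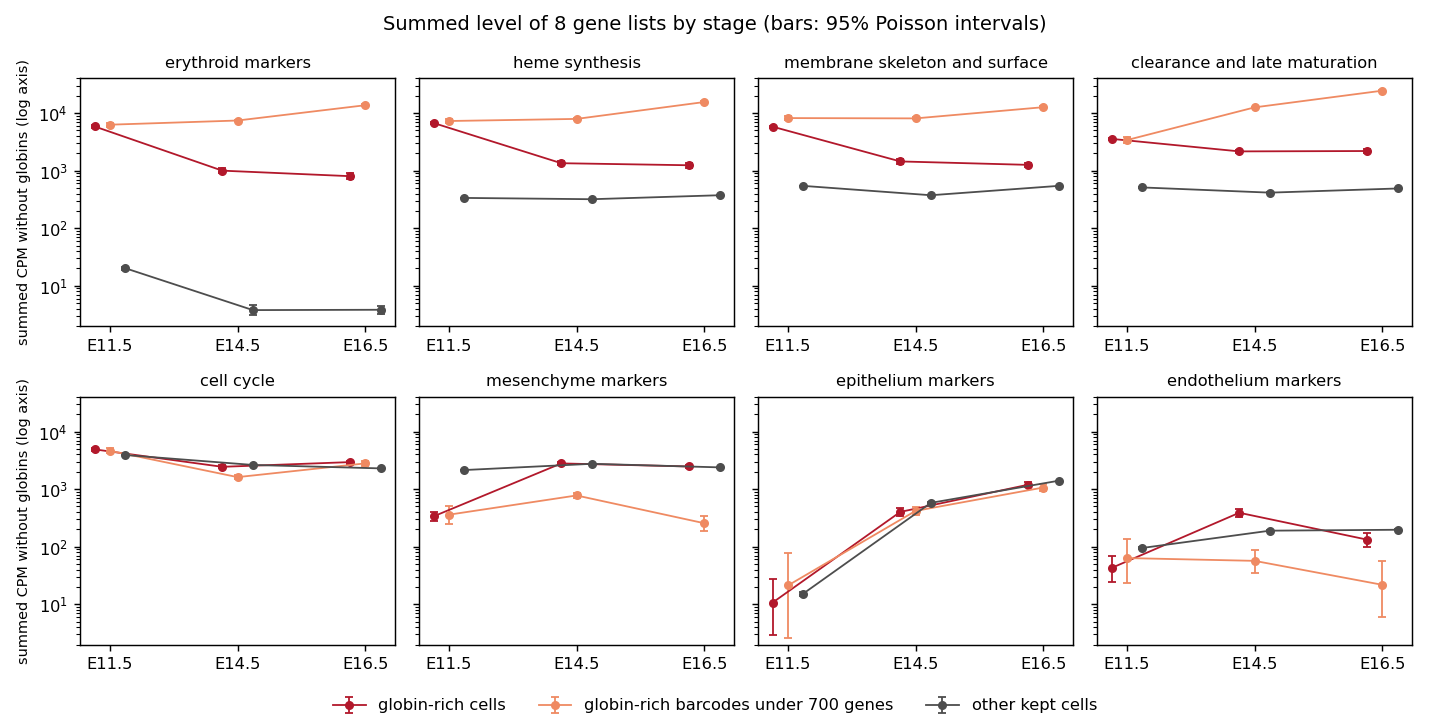
Summed level of 8 gene lists (CPM without globins, log axis) by stage in globin-rich cells (red), globin-rich barcodes under 700 genes (orange) and other kept cells (gray), with bars for 95% Poisson intervals. The heme list of the globin-rich cells goes from 6725 to 1347 and 1241 CPM while that of the barcodes under 700 genes goes from 7282 to 7924 and 15557 CPM.

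Iron genes differed among themselves. Of 7 tested, 3 were lower and 0 higher at E14.5 and again at E16.5, and they were *Tfrc*, *Slc25a37* and *Fth1* both times. Of all genes tested in the globin-rich cells, 8.38% and 7.21% were lower and 23% and 25.6% higher. *Tfrc*, the transferrin receptor, was at 572, 33.1 and 35.9 CPM in the globin-rich cells, and at 37.9, 48.7 and 35 CPM in the other kept cells, so it stood well above them at E11.5 and not later. In the barcodes under the minimum it was at 1111, 100 and 27.2 CPM. *Slc25a37* (mitoferrin), which carries iron into mitochondria, remained well expressed, at 1743, 468 and 614 CPM in the globin-rich cells against 16.8, 13.1 and 17.5 CPM in the other kept cells. The ferritin genes that store iron took most of the list. *Fth1* was at 13723, 5977 and 2198 CPM and *Ftl1* at 4409, 5569 and 2978 CPM, and both have processed pseudogenes that could take some of their reads. Under the minimum both ferritins were highest at E14.5, *Fth1* being at 9198, 36490 and 16357 CPM and *Ftl1* at 3249, 37576 and 32513 CPM. The iron list summed to 21138, 12498 and 6307 CPM in the globin-rich cells and to 16469, 77151 and 55331 CPM under the minimum, so the log2 ratio of its sum turned from -0.76 to 2.23 at E14.5 and from -1.74 to 1.75 at E16.5. By gene, 2 of 7 were higher and 2 lower under the minimum at E14.5, and 3 and 3 at E16.5, where 12.7% and 13.6% of all genes were higher and 24.2% and 31.2% lower.

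Membrane skeleton and surface genes were lower as well, with 15 of 19 lower and 1 higher at E14.5 and 16 lower and 1 higher at E16.5. Among all genes tested, 8.38% and 7.21% were lower and 23% and 25.6% higher. The summed level of the membrane list was 5808 CPM (5566 to 6057), 1446 (1329 to 1570) and 1261 (1148 to 1382). *Slc4a1*, the band 3 anion exchanger that anchors the skeleton, was at 1219, 158 and 33.2 CPM, with a log2 ratio of -2.87 (-3.25 to -2.51) at E14.5. At E16.5 the surface antigen genes *Kel* and *Rhd* ranked 4 and 5 among the most strongly lower genes. *Kel* had 206 UMIs at E11.5 and 1 at E16.5 (199-fold lower, 35.4 to 7907), and *Rhd*, an Rh family gene, 182 and 1 (176-fold lower, 31.2 to 6990). *Epb41*, protein 4.1, which ties spectrin to actin, stayed within 2-fold, at 313, 382 and 340 CPM. The 1 higher gene was *Cd24a*, a surface glycoprotein of immature blood cells also made by epithelia, at 126, 311 and 465 CPM. Under the minimum the list summed to 8192, 8089 and 12656 CPM, log2 ratios of -0.02 (-0.13 to 0.10) and 0.63 (0.51 to 0.75). Most of its genes were nevertheless lower there, with 11 of 19 lower and 4 higher at E14.5 and 12 lower and 3 higher at E16.5 (medians -1.10 and -1.59). Among all genes under the minimum, 24.2% and 31.2% were lower and 12.7% and 13.6% higher. In embryonic-type barcodes under the minimum the membrane list summed to 8452, 4289 and 3671 CPM (34 UMIs at E16.5). In adult-type ones it summed to 2265 (9 UMIs), 11444 and 13133 CPM.

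Transcription factors and cytokine signaling followed. Of 9 erythroid transcription factors tested, 4 were lower and 1 higher at E14.5, and 3 lower and 1 higher at E16.5. The shares of all genes tested were 8.38% and 7.21% lower, and 23% and 25.6% higher. *Klf1* was at least 28-fold lower at E14.5 and at least 25.8-fold lower at E16.5, the bounds set by a floor of 3 UMIs over the group. *Tal1*, a partner of *Gata1*, was at 158, 30.5 and 2.76 CPM and *Zfpm1*, its cofactor FOG1, at 214, 17.8 and 2.76 CPM. The factors summed to 1048, 382 and 376 CPM in the globin-rich cells, a log2 ratio of -1.43 at E14.5. In the other kept cells they summed to 363, 294 and 380 CPM, so the groups were level at E16.5. *Bcl11a* took 64 of the 136 UMIs of the globin-rich cells at E16.5, at 177 CPM against 182 CPM in the other kept cells. Under the minimum the factors summed to 1228, 1169 and 691 CPM, a ratio of -0.07 (-0.36 to 0.23) at E14.5. The E16.5 ratio there was -0.82 (-1.19 to -0.45). *Tal1* was at 201, 295 and 10.9 CPM there, and *Klf1* at 138, 13.5 and 21.8 CPM. Of 6 cytokine signaling genes, 3 were lower at both stages, 0 were higher at E14.5 and 1, the feedback inhibitor gene *Socs2*, at E16.5. *Epor*, the erythropoietin receptor, had 51 UMIs at E11.5 and 0 later, at least 17.9-fold lower at E14.5 and at least 16.4-fold lower at E16.5. Its kinase *Jak2* was at 56.2, 15.3 and 16.6 CPM, and the induced kinase gene *Pim1* at 299, 76.4 and 22.1 CPM. Under the minimum *Epor* was at 180, 10.8 and 0 CPM, and the cytokine list summed to 900, 660 and 762 CPM, against 671, 384 and 362 CPM in the globin-rich cells. In the other kept cells the cytokine list summed to 254, 275 and 351 CPM, near the globin-rich cells at E16.5.

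The list of globin chaperone and redox genes, called the redox list here, had 4 genes lower and 2 higher of 9 at E14.5, and 5 lower and 0 higher at E16.5. Beside these, 8.38% and 7.21% of all genes tested were lower and 23% and 25.6% higher. *Prdx2*, the main peroxiredoxin of red cells, was at 4343, 1604 and 1291 CPM and *Gpx1*, glutathione peroxidase, at 3161, 1667 and 1073 CPM. *Hmox1*, which breaks heme down, had 0 UMIs at E11.5 and was at 71.3 CPM at E14.5 (at least 8.88-fold higher) and 5.53 CPM at E16.5. With barcodes of 200 or more genes admitted and no mitochondrial limit, the summed ratio of this list turned, to 0.07 at E14.5 and 0.10 at E16.5 from -1.19 and -1.58. In the barcodes under the minimum alone it was 1.25 and 1.56, the list summing to 8711, 20732 and 25780 CPM. There 6 of 9 genes were higher at E14.5 and 5 at E16.5, while 0 were lower. The shares of all genes there were 12.7% and 13.6% higher, and 24.2% and 31.2% lower. *Prdx2* was at 3038, 6287 and 6902 CPM and *Gpx1* at 2646, 9564 and 13494 CPM in these barcodes, both lowest at E11.5. Carbonic anhydrase and solute carrier genes had 4 of 5 lower at both stages, led in level by *Car2*, which speeds carbon dioxide exchange, at 2377, 568 and 307 CPM. Under the minimum 4 of 5 were lower as well, but *Car2* was at 2159, 2620 and 3631 CPM, and the list summed to 3069, 2755 and 3707 CPM, a log2 ratio of 0.27 at E16.5. The metallothioneins *Mt1* and *Mt2*, small proteins that bind zinc, had the lowest log2 ratios of all genes tested in both comparisons. *Mt1* was at 11351, 148 and 122 CPM and *Mt2* at 2738, 43.3 and 19.4 CPM, log2 ratios of -6.17 (-6.54 to -5.82) and -5.69 (-6.29 to -5.11) at E14.5.

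Genes of clearance and late maturation differed in both directions. Of 13 tested, 3 were higher and 4 lower at E14.5, and 4 higher and 4 lower at E16.5, beside 23% and 25.6% of all genes tested that were higher and 8.38% and 7.21% that were lower. The list summed to 3564, 2161 and 2193 CPM in the globin-rich cells and to 3398, 12570 and 24500 CPM under the minimum. Against E11.5 the log2 ratios of these sums were -0.72 and -0.70 in the globin-rich cells, and 1.88 and 2.85 under the minimum. Higher at both were *Bnip3l* (NIX), which marks mitochondria for removal (222, 519 and 578 CPM), and *Ube2o*, a ubiquitin enzyme of reticulocytes (18.7, 94.2 and 94 CPM). *Gabarapl2*, an autophagosome protein, was at 128, 244 and 371 CPM, past 2-fold at E16.5 only. *Hemgn* was the most strongly lower member, at 1730, 40.7 and 19.4 CPM and with a log2 ratio of -5.10 (-5.72 to -4.50) at E14.5. *Trim10* was at 249, 76.4 and 24.9 CPM. The barcodes under the minimum held the clearance genes at far higher levels at the late stages: *Bnip3l* was at 222, 3759 and 6494 CPM there and *Bpgm*, which makes the hemoglobin ligand 2,3-bisphosphoglycerate, at 318, 1948 and 4768 CPM, against 417, 323 and 382 CPM in the globin-rich cells.

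**Figure D4:**
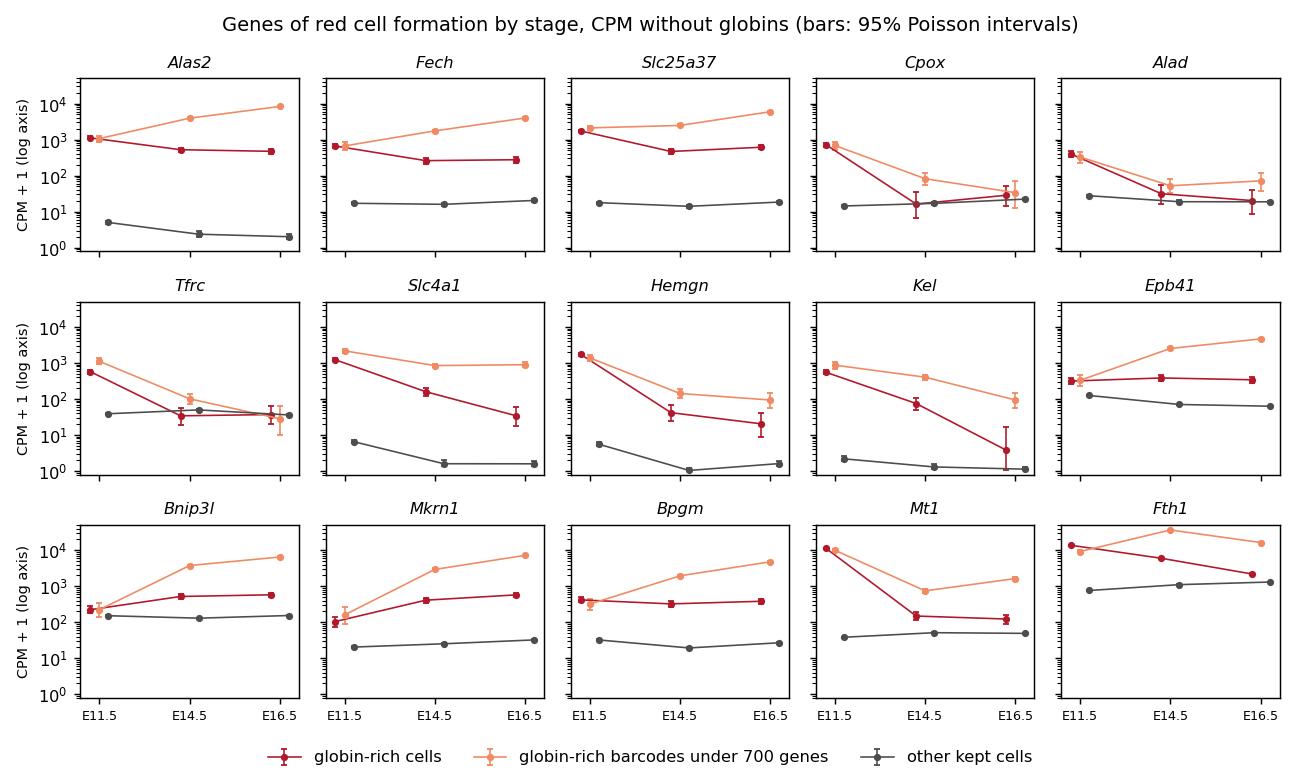
Level (CPM without globins plus 1, log axis) of 15 genes by stage in globin-rich cells (red), globin-rich barcodes under 700 genes (orange) and other kept cells (gray), with 95% Poisson bars. *Alas2*, *Fech* and *Bnip3l* climb with stage in the barcodes under 700 genes, and *Cpox*, *Tfrc* and *Hemgn* are lower at both later stages than at E11.5 in both globin-rich sets.

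Cell cycle genes summed to 4909 CPM (4687 to 5139), 2444 (2292 to 2603) and 2950 (2776 to 3133) in the globin-rich cells, and to 3916, 2633 and 2295 CPM in the other kept cells. In the globin-rich cells the cell cycle level was highest in the lowest globin band at each stage. At E11.5 it was 6293, 4758 and 4613 CPM at 20 to 30%, 30 to 40% and 40 to 60% globin. From 20 to 30%, 30 to 40%, 40 to 60% and 60% or more of UMIs it was 3283, 2911, 1386 and 1615 CPM at E14.5, and 3875, 2946, 1979 and 1421 CPM at E16.5, where the 13 cells of the lowest band held 553 of the 1067 counts. The E16.5 bands of 40% or more thus stood below the other kept cells. Under the gene minimum the list summed to 4636, 1618 and 2803 CPM. In the globin-rich cells 4 of 10 genes were lower and 1 higher at E14.5, and 2 lower and 1 higher at E16.5. Among all genes, 8.38% and 7.21% were lower and 23% and 25.6% higher. *Mki67*, present in cycling cells, was at 1444, 267 and 279 CPM, and *Top2a*, which untangles replicated DNA, at 1000, 557 and 614 CPM. After thinning, 96.1%, 55.8% and 71.2% of the globin-rich cells had a cell cycle UMI, against 88.2%, 56.3% and 46.1% of the other kept cells. Inhibitors of the cycle were higher in 3 of 6 cases at E14.5 and in 2 of 6 at E16.5, beside 23% and 25.6% of all genes. They summed to 388, 1061 and 617 CPM, and to 1113, 984 and 720 CPM in the other kept cells, near which the globin-rich cells stood at the later stages. Glycolysis genes were higher in 4 of 11 and 7 of 11 cases and lower in 0, against the same shares of all genes. Their sums of 2070, 3108 and 3581 CPM stood below the 4254 CPM of the other kept cells at E11.5 and near their 3235 and 3436 CPM later, and *Pklr*, the red cell pyruvate kinase, too low on average to be among the tested, was at 64.2 CPM at E11.5 and at 0 later.

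Markers of mesenchyme and epithelium were among the higher genes. Of 10 mesenchyme markers 8 were higher at E14.5 and 8 at E16.5, and of 7 epithelium markers 5 and 7, where 23% and 25.6% of all genes tested were higher. *Col1a1*, a chain of type I collagen, was at 8.02, 397 and 633 CPM in the globin-rich cells and at 41.5, 387 and 555 CPM in the other kept cells. *S100a10*, the annexin partner, was at 2.67, 367 and 323 CPM, and at 56, 360 and 401 CPM in the other kept cells. *Ptn*, the growth factor pleiotrophin, was at 120, 1044 and 3337 CPM, and at 969, 1301 and 2956 CPM in the other kept cells. At the later stages the 2 groups were thus close for each of these genes.

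Between E14.5 and E16.5 fewer genes passed 2-fold than against E11.5. Of 4580 genes 196 (4.28%) were at least 2-fold higher at E16.5 and 89 (1.94%) lower, with a median log2 ratio of 0.08. The split moved with the scaling, to 149 higher and 113 lower when the ratios were shifted to a median of 0, and to 181 and 43 when the globins stayed in the total. The counts moved too, to 590 higher and 642 lower with cells thinned to 1000 UMIs not of globins, to 526 and 283 in cells with a globin share of at least 40%, and to 17 and 23 among genes with a mean of at least 100 CPM. The E16.5 cells held only adult-type globin, so this comparison also sets 52 adult-type cells against a mixture. Erythroid markers were lower in 2 of 8 cases and higher in 0, and heme synthesis genes lower in 1 of 12 and higher in 0. *Slc4a1* was at 158 CPM at E14.5 and 33.2 CPM at E16.5 (log2 ratio -1.96, -2.71 to -1.21), and *Kel* at 73.8 and 2.76 CPM. *Alas2* differed by -0.15 (-0.44 to 0.15), an interval that includes 0, but was at 3938 and 8350 CPM under the minimum. The summed log2 ratios of the erythroid, heme and membrane lists were -0.32, -0.12 and -0.20 in the globin-rich cells, and 0.88, 0.97 and 0.65 under the minimum. Barcodes under the minimum were 28.9% embryonic-type at E14.5 and 3.33% at E16.5. Among adult-type barcodes under the minimum the 3 ratios were smaller, at 0.27, 0.36 and 0.20. There 0 of 8 erythroid markers passed 2-fold, and *Alas2* was at 6598 and 8748 CPM. In the globin-rich cells *Fth1* was lower, at 5977 and 2198 CPM (log2 ratio -1.44, -1.56 to -1.32). Membrane genes were lower in 5 of 19 cases. Epithelium markers were higher in 6 of 7 cases (402 and 1192 CPM summed), and the other kept cells went from 578 to 1399 CPM. The sphingomyelinase gene *Smpd3*, at 10.2 and 194 CPM, likewise went from 22 to 177 CPM in the other kept cells, and the stress gene *Atf3*, at 143 and 22.1 CPM, from 98.2 to 31 CPM.

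Within E14.5, cells with embryonic-type and adult-type beta globin came from the same pooled matrix. The sample and embryo of each cell are not known, so beta-globin type, sample and embryo cannot be told apart. The split used globin UMIs only, and a type cut from such a share is a range of cells. The 79 adult-type and 34 embryonic-type cells had similar medians of 1195 and 1226 genes, and other-type markers took a median of 0.387% and 0.25% of their UMIs. Of 4580 genes 357 (7.79%) were at least 2-fold higher in the adult type and 234 (5.11%) lower, but the counting interval left out 0 for only 98 and 112 of them. With the ratios shifted to a median of 0 the counts were 283 and 281. The embryonic-type barcodes under the gene minimum (289, against 711 adult-type) of the same matrix were set beside them, with 945 (20.6%) higher and 350 (7.64%) lower in the adult type.

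Adult-type cells held more of the first and last heme enzymes and of mitoferrin. *Alas2* was at 657 CPM in them and 240 CPM in the embryonic type (log2 ratio 1.42, 0.87 to 2.0), and at 6598 and 923 CPM in the barcodes under the minimum. *Fech* was at 321 and 128 CPM. *Slc25a37* was at 639 and 104 CPM, and at 4433 and 266 CPM under the minimum. These 3 genes thus went the same way in both sets. As a list, heme synthesis had 4 of 12 genes higher and 1 lower in the globin-rich cells, the lower one being *Abcb10*, and the erythroid markers 2 higher and 2 lower of 8. Among all genes tested, 7.79% were higher and 5.11% lower in the adult type. *Hemgn* was lower in the adult type (2 against 14 UMIs, 15-fold, 3.44 to 136) but higher under the minimum, at 204 against 69.3 CPM, so its direction was not the same in the 2 sets.

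Embryonic-type cells held other genes. *Pdzk1ip1*, a small membrane protein gene next to *Tal1*, was at 472 CPM in them and 18.7 CPM in adult-type cells (log2 ratio -4.07, -4.98 to -3.09), and at 1980 and 5.1 CPM under the minimum. *Nudt4*, a phosphohydrolase of inositol pyrophosphates, was at 1567 and 112 CPM, and at 7105 and 622 CPM under the minimum. *Hmox1* was at 208 and 7.47 CPM (26 and 2 UMIs, 27.8-fold, 6.97 to 242), and at 1160 and 35.7 CPM under the minimum. *Tal1* had 12 UMIs in embryonic-type and 0 in adult-type cells, at least 8.57-fold, and was at 595 and 30.6 CPM under the minimum. *Fth1* was at 11499 and 3398 CPM (log2 ratio -1.76, -1.88 to -1.64), and at 54573 and 20528 CPM under the minimum. All 5 genes were higher in the embryonic type in both sets. *Pdzk1ip1*, *Nudt4*, *Hmox1* and *Tal1* were among the 8 smallest ratios, by which genes were named, in each of the 2 sets. Their agreement between the sets is thus no independent check. Clearance genes leaned the other way, with 4 of 13 higher and 1 lower in adult-type cells and 11 of 13 higher under the minimum (7.79% and 20.6% of all genes higher), *Bpgm* among them in both (407 against 144 CPM, and 2991 against 768 CPM). Cell cycle genes had 0 of 10 past 2-fold in the globin-rich cells and 5 of 10 higher in the adult type under the minimum, beside the same 20.6%. Markers of other cell types moved with this: under the minimum mesenchyme markers summed to 1111 CPM in the adult type and 398 in the embryonic type, and epithelium markers to 596 and 219 CPM. The median number of UMIs not of globins was 241 and 552. The part of these in the difference was not tested. The promoters of *Pdzk1ip1*, at chr4:115088458-115088757 (plus strand), and of *Bpgm*, at chr6:34476106-34476405 (plus strand), are shown in the same notation because these genes went opposite ways.
Pdzk1ip1: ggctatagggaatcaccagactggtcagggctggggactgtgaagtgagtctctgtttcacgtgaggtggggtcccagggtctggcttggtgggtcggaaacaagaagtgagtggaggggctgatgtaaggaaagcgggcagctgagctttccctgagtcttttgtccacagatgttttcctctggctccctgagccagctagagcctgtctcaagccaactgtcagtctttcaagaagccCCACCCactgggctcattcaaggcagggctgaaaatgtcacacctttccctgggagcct
Bpgm: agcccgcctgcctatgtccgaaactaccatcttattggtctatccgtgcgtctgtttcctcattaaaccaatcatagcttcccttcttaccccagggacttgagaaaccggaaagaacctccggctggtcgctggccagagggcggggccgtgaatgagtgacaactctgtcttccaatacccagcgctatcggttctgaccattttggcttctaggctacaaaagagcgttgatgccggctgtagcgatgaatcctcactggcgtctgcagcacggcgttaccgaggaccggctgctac

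Neither promoter held AGATAA or TGATAA, and *Pdzk1ip1* held 1 CCACCC, 9 bases before its start. No match says only that these letters are not in the window.

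**Figure D5:**
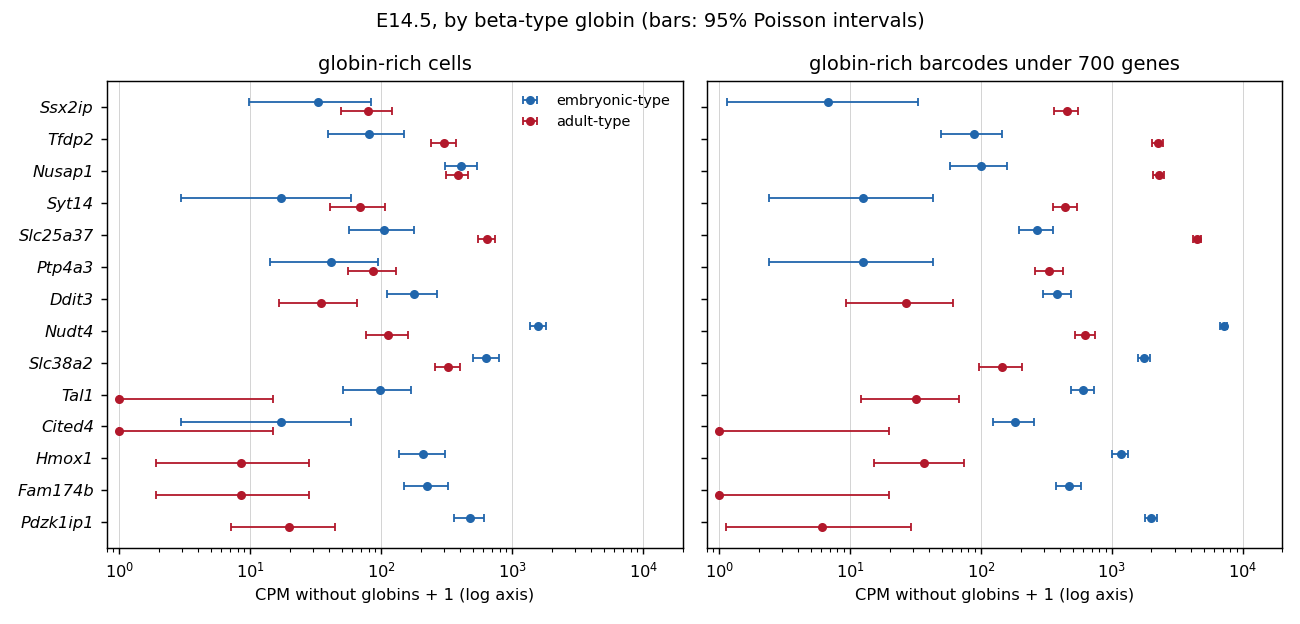
Level (CPM without globins plus 1, log axis) of 14 genes in embryonic-type (blue) and adult-type (red) barcodes at E14.5, for globin-rich cells (left) and globin-rich barcodes under 700 genes (right), with 95% Poisson bars. *Slc25a37* and *Tfdp2* are higher in the adult type and *Pdzk1ip1*, *Nudt4* and *Hmox1* in the embryonic type in both panels.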

How the data were processed

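Cells were profiled by 10x Chromium single-cell RNA sequencing. The authors deposited raw UMI counts per gene and barcode, 1 matrix per stage, made with Cell Ranger 4.0.0 on mm10 per the labels. Each stage was analyzed as 1 sample because barcodes carry no sample label. Every barcode had at least 500 UMIs. From these counts, barcodes were kept that had 700 genes or more and mitochondrial UMIs of 20% or less, and CPM were computed without the 7 globins in Python 3.11.15 (numpy 2.4.6, scipy 1.17.1, matplotlib 3.10.9). Counts of 32285 genes were pooled per group. Log2 ratios had 10 CPM added and covered 4580 genes with a mean of at least 25 CPM over the 3 stages. *Xist*, *Tsix* and Y-linked genes were left out. Intervals (95%) were exact Poisson for counts, Clopper-Pearson for shares, and combined from both Poisson limits for ratios. Bounds against 0 used a floor of 3 counts per group. No test was possible, and 2-fold served as the call. The code was tested on simulated data. Scrublet (scanpy 1.11.5) marked 0, 0 and 2 cells at its own threshold and so had not worked as a caller. No doublets were removed, and 2, 4 and 5 globin-rich cells lay in the top 5% of doublet scores. Members and all 21 gene lists were chosen with earlier results of these data known. Genes named were those of the lists and, per comparison, the 8 largest and 8 smallest ratios whose interval left out 0. *Ahsp* was not analyzed here, and some genes are not reported here. Gene positions are GENCODE vM21 (GRCm38), and promoter sequences are from RefSeq (GRCm38.p6).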

Additional observations from a re-analysis of the deposited data

Results flagged for a closer look

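Globin-rich barcodes outside the kept cells were looked at because they hold the signal of interest in data that the 700-gene minimum leaves out. In stage order they numbered 107, 1000 and 511. Their erythroid markers summed to 6287, 7429 and 13695 CPM, above the 5859, 1000 and 802 CPM of the globin-rich cells, and their mesenchyme markers to 360, 777 and 256 CPM, against 337, 2800 and 2477 CPM.

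Among the barcodes under the minimum at E11.5, 13 had adult-type beta globin, although all 103 globin-rich cells of that stage were embryonic-type. These 13 had a median of 716 UMIs, 208 genes and a globin share of 60.9%, against 1484 UMIs and 539 genes in the 94 embryonic-type ones. Their source was not tested.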

How the results depend on the processing

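No paired analysis was possible because barcodes could not be assigned to the numbered samples, and for the same reason no replicate was left out in turn. Under the 16 planned settings 874 of 1155 summed list ratios and 671 of 880 ratios of named genes moved by less than their counting intervals, 277 and 209 moved further, and 4 list ratios past 2-fold changed sign. Below, a ratio is said to have turned where it was past 2-fold as reported and changed sign, unless stated otherwise. The cause of these moves was not tested.

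With at least 200 genes and no mitochondrial limit, globin-rich cells made up 2.36%, 6.97% and 6.1% of the cells in stage order. Genes higher at E14.5 than at E11.5 numbered 683, and the lists past 2-fold numbered 9, 8 and 5 for E14.5 over E11.5, E16.5 over E11.5 and adult over embryonic type (14, 14 and 3 as reported, and 5 for E16.5 over E14.5). The redox list turned to 0.07 and 0.10. With a minimum of 1000 genes and a mitochondrial limit of 10% the E11.5 share was 0.965%.

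With a globin minimum of 10%, the E14.5 share was 2.3% and 56 genes were lower at E16.5 than at E14.5. With 40%, the shares were 0.913%, 1% and 0.599%, E16.5 over E14.5 had 526 higher and 283 lower genes, adult over embryonic type 978 and 570 with 8 lists, and the endothelium list turned to 0.29 for E16.5 over E14.5. Without cells with over 0.5% of UMIs from other-type markers, 168 genes were lower at E16.5 than at E14.5 and the macrophage list turned to 0.40. Without the cells of the top 5% of doublet scores, and with mitochondrial and ribosomal genes left out of the total, the lists between types numbered 5 each time. With cells weighted equally they numbered 7.

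The added CPM set how low genes counted. With 1 CPM, E16.5 over E14.5 had 348 higher and 172 lower genes and adult over embryonic type 541 and 369, with 6 lists. With 50 CPM the counts were 385 and 166 for E14.5 over E11.5, 491 and 172 for E16.5 over E11.5, 35 and 24 for E16.5 over E14.5 with 2 lists, and 30 and 35 between the types. With no minimum on the mean level they were, in the same order, 2132 and 749, 2571 and 683, 617 and 330, and 1154 and 731. With a minimum of 100 CPM they were 259 and 114, 265 and 110, 17 and 23, and 43 and 24. With globins kept in the total, 43 genes were lower at E16.5 than at E14.5, and adult over embryonic type had 208 and 143. With ratios shifted to a median of 0, 573 genes were lower at E16.5 than at E11.5. With cells thinned to 1000 non-globin UMIs, 693 and 865 genes were lower at E14.5 and E16.5 than at E11.5, E16.5 over E14.5 had 590 higher and 642 lower with 9 lists, and adult over embryonic type 1071 and 579 with 6 lists.

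Both further alternatives were chosen after seeing the data. With no filter on barcodes, the shares were 2.41%, 13.6% and 9.84%. Higher genes numbered 627 for E14.5 over E11.5 (9 lists), 757 for E16.5 over E11.5 (8 lists) and 129 for E16.5 over E14.5, and 5 lists differed between the types. The redox list turned to 0.24 and 0.07, the iron list to 0.18 for E16.5 over E11.5, and *Hemgn* to 0.05 between the types. With only the barcodes under 700 genes, E14.5 over E11.5 had 390 higher and 1020 lower genes (9 lists), E16.5 over E11.5 426 and 1196, and E16.5 over E14.5 441 lower, while 735 genes were higher in the adult type and 10 lists past 2-fold. Against E11.5, summed log2 ratios then turned for the erythroid (0.24 at E14.5 and 1.12 at E16.5), heme (0.12 and 1.09), redox (1.25 and 1.56), endothelium (-0.14 and -1.21) and glia lists (-0.18 and -1.04), for the progenitor list at E14.5 (-0.67), and for the iron (1.75), membrane (0.63), carbonic anhydrase (0.27) and mesenchyme lists (-0.48) at E16.5. Of the list ratios within 2-fold as reported, those for clearance at both stages (1.88 and 2.85), for iron (2.23) and mast cells (-1.04) at E14.5, and for cell cycle inhibitors (-0.14) and muscle (-0.41) at E16.5 changed sign as well. For E16.5 over E14.5 so did the erythroid (0.88), heme (0.97), membrane (0.65), redox (0.31), carbonic anhydrase (0.43) and cytokine lists (0.20). Between the types the carbonic anhydrase (-0.56 to 0.87) and cell cycle inhibitor lists (0.01 to -1.07) changed sign. Endothelium, megakaryocyte and glia markers were lower in adult-type globin-rich cells (358 against 456, 3.73 against 16 and 26.1 against 32 CPM). Under the minimum they were higher (71.3 against 40.4, 30.6 against 5.77 and 15.3 against 0 CPM). The medians of the erythroid (-1.22 and -0.97) and heme genes (-1.81 and -1.91), and of the membrane genes at E16.5 (-1.59), kept the direction of the globin-rich cells. For E16.5 over E14.5, adult-type barcodes under the minimum gave 0.27 (erythroid), 0.36 (heme) and 0.20 (membrane). *Smpd3* turned to -0.35 and *Rspo3* to 0.44 for E16.5 over E14.5, and *Ndufaf4* to -0.51, *Smim8* to -0.62 and *Hemgn* to 1.43 between the types.

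With 1 pooled matrix a stage, differences between stages have no replicate check. The sum of non-globin UMIs, 373973, 392854 and 361672 in the globin-rich cells and 94479, 369521 and 183711 in the barcodes under the minimum, limits genes at low level, so that a count of 0 allows up to 3 UMIs.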
